A study of Homo sapiens with 6 samples.

Results

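The 10 genes described here drive or restrain the step from G1 into S phase. They are the cyclin genes CCND1, CCND3, CCNE1 and CCNE2, the kinase genes CDK2, CDK4 and CDK6, the retinoblastoma gene RB1, the transcription factor gene E2F1 and the inhibitor gene CDKN1B. They were chosen by symbol, and 10 of 10 were found, each in a single row, among the 19912 rows of a table of mRNA levels in PANC-1 cells. PANC-1 is an established line from a human pancreatic ductal carcinoma. All 6 libraries carry the label of a gemcitabine-resistant phenotype, gemcitabine being a nucleoside drug. They comprise 3 libraries labelled shSRSF3, a short-hairpin knockdown of the splicing factor SRSF3, and 3 labelled ctrl. The labels say nothing of clones, culture dates or batches, so every p-value measures the spread between these libraries, which may be technical.

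In the textbook account, D-type cyclins pair with CDK4 and CDK6 and begin to phosphorylate the retinoblastoma protein RB, which otherwise holds E2F factors back. Freed E2F factors raise transcription of genes for S phase, among them those of the E-type cyclins and of E2F1 itself. Cyclin E then pairs with CDK2 and phosphorylates RB further, while p27, the product of CDKN1B, binds and restrains these complexes. Much of this control acts on proteins, through degradation and phosphorylation, and mRNA levels do not measure it.

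Values are FPKM, a fragment count divided by gene length and by the library's total, which lets levels of different genes be set side by side. Such comparisons between genes rest on the gene lengths used, whose annotation was not given. The steps of the values give totals of 24903382 to 27300517 fragments per library labelled knockdown and of 24558238 to 27351642 per control. SRSF3, the gene named in the treatment label, stood at 36.95, 37.1 and 38.6 FPKM in libraries labelled knockdown, against 37.0, 39.6 and 39.2 FPKM in controls. The ranges overlapped, and the log2 change of -0.04 did not pass (SE 0.05, limma adjusted p = 0.612), so the libraries are called by their labels throughout. Library 1 labelled knockdown stood apart, since its 13 mitochondrial mRNAs made up 32.1% of summed FPKM, against 27.5% and 25.7% in libraries 2 and 3 of that label and 25.6% to 26.2% in controls. The part of this in the results was not tested, and the log2 change or call without that library is given for each of the 10 genes. Of 6 epithelial marker genes, KRT8, KRT18, KRT19, EPCAM and CDH1 lay at 71.4 FPKM or more in every library and KRT7 at 0.241 FPKM or less. Of the 14 markers reported here of leukocytes, endothelium, fibroblasts, acinar and endocrine cells, PTPRC, INS and GCG were listed at 0 and none exceeded 0.751 FPKM.

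The 10 genes spanned a wide range of levels. In libraries labelled knockdown, mean FPKM fell in the order CCND1, CDK4, E2F1, CDKN1B, CCNE1, CCND3, CDK2, RB1, CDK6 and CCNE2, from 188 down to 2.60 FPKM. In controls the order was CCND1, CDK4, E2F1, CDKN1B, CCND3, CCNE1, CDK2, RB1, CDK6 and CCNE2, from 171 down to 2.53 FPKM. The order thus differed at a single place, with CCNE1 above CCND3 in libraries labelled knockdown and CCND3 above CCNE1 in controls. Neighbours whose library ranges overlapped were CDKN1B and CCNE1, and CDK6 and CCNE2, in libraries labelled knockdown, and E2F1 and CDKN1B, CDK2 and RB1, and CDK6 and CCNE2 in controls. CCND1 ranked 154th by mean FPKM among the 10823 genes tested and CCNE2 ranked 8119th. The fewest fragments in any library were 261 for CCNE2, a counting error of 6.19%, and the most were 24784 for CCND1.

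**Figure D1:**
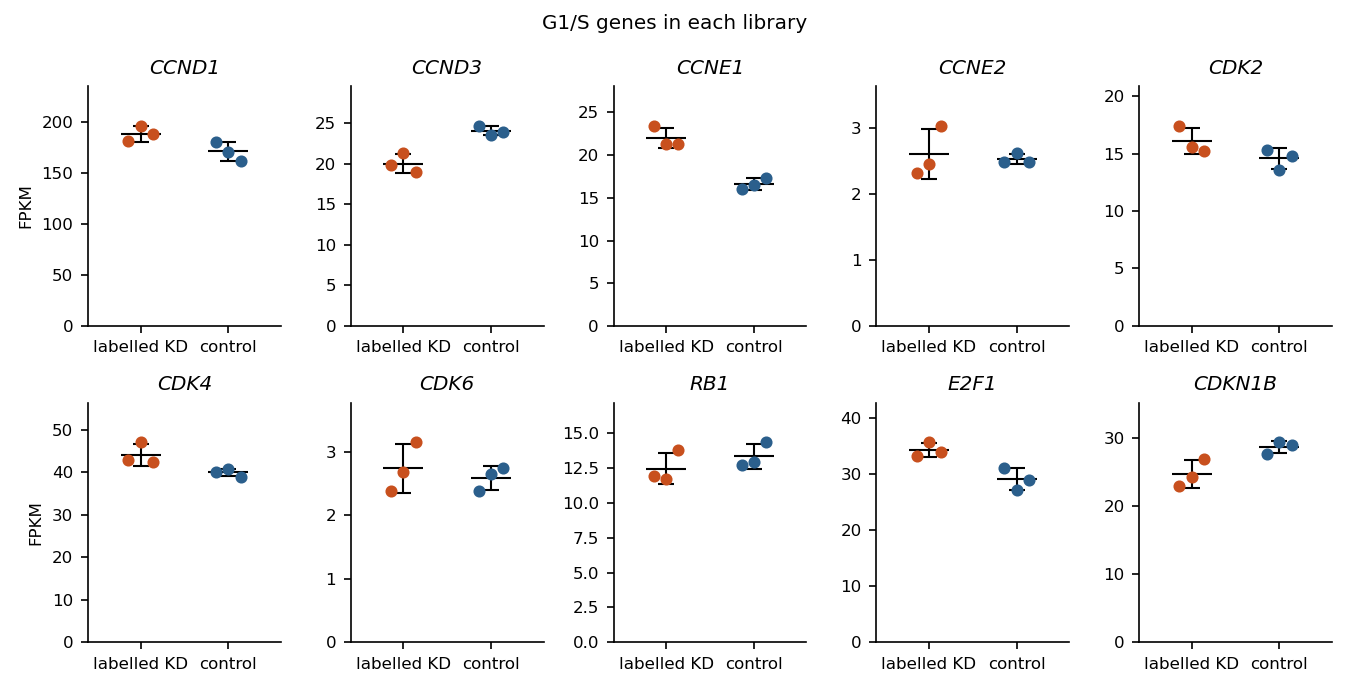
FPKM of each of the 10 genes on linear axes that start at 0, with a point for each library, 3 labelled knockdown (left in each panel) and 3 control (right), and bars for mean ± SD. CCNE1 and E2F1 lie higher, and CCND3 and CDKN1B lower, in the libraries labelled knockdown with no overlap, while the points of CCNE2, CDK2, CDK6 and RB1 overlap.

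Of the 10 genes, 4 passed the threshold (limma, Benjamini-Hochberg adjusted p below 0.05 over all 10823 genes tested), CCNE1 and E2F1 higher and CCND3 and CDKN1B lower in libraries labelled knockdown. Of all genes tested 16.8% passed, 10.9% higher and 5.91% lower. Among genes averaging 5 FPKM or more, 1666 of 6311 passed, as did 4 of the 8 G1/S genes tested there. The groups did not overlap for 6 of the 10 genes, adding CCND1 and CDK4 to the 4 that passed, against 37.9% of all genes tested. The median log2 change of the 10 genes was 0.09, against 0.02 for all genes tested and 0.05 for those averaging 5 FPKM or more. The number passing was 3 without library 1 labelled knockdown, 2 without library 2 of that label, 2 without control library 2 and 2 without control library 3. In the same fits 1640, 844, 647 and 651 of all 10823 genes passed. Log2 changes are of FPKM + 1. RNA was taken from whole cultures, so a smaller share of cells in a given phase of the cycle and less RNA per cell cannot be told apart.

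The upstream sequences of CCNE1, E2F1 and CDKN1B are shown because CCNE1 and E2F1 rose and CDKN1B fell, and because E2F factors are known to act at the first 2 of these genes. Each is the 250 bases before the gene's start in RefSeq's GRCh38.p14 table, 5′ to 3′ on the gene's strand. They lie at chr19:29811741-29811990 (plus strand) for CCNE1, chr20:33686386-33686635 (minus strand) for E2F1 and chr12:12717118-12717367 (plus strand) for CDKN1B. Capitals mark matches on either strand to an E2F site (TTTCCCGC, TTTGGCGC, TTTCGCGC or TTTGCCGC), to a GC box, to the CCAAT box by those letters, or to an E box. The letters searched for the GC box, bound by SP1 and its relatives, were GGGCGG. Those searched for the E box, bound by MYC and its relatives, were CACGTG.
CCNE1: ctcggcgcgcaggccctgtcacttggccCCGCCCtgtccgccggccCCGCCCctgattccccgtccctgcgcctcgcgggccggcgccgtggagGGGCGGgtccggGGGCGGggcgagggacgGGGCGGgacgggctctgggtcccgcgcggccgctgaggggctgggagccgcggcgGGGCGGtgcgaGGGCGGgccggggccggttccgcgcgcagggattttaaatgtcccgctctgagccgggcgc
E2F1: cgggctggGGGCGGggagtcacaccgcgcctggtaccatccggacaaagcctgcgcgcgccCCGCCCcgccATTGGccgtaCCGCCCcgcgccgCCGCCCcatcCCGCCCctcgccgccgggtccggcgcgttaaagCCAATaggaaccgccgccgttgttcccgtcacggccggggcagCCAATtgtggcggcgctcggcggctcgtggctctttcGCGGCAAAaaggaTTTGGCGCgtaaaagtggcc
CDKN1B: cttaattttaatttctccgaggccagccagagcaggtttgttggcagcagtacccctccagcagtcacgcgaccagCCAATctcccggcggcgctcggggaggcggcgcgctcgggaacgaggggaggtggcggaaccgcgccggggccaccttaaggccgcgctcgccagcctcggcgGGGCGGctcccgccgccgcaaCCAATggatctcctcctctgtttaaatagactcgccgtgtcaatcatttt

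The E2F1 window held 2 E2F site matches close to the start, one on each strand, with 5 GC boxes and 3 CCAAT boxes. CCNE1 had 7 GC boxes and no match to the other 3 motifs in its window, whose GC content was 81.2%. Only the exact letters given were searched, so a window with no match may still hold a site that differs from them. In the CDKN1B window 2 CCAAT boxes and 1 GC box were found. No matches overlapped in these windows. Among all 35116 windows of the table, 2.79% held an E2F site, 42.6% a GC box, 32.0% a CCAAT box and 6.35% an E box. Of the 10 genes, 7 had an entry, in 10 windows. The RB1 window and 2 of the 3 CCND3 windows lie deep inside the annotated genes, so they do not show the sequence upstream of the first start. Nor do the other CCND3 window, which precedes a start 1347 bases inside the gene, and a CDK6 window, which precedes one 2614 bases inside. Among the genes with an entry, E2F1 alone had an E2F site match and CDK4 alone had E boxes, 3 of them. CCND1, CCNE2 and CDK2 had no entry.

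CCNE1, which encodes cyclin E1, an activator of CDK2, showed the largest log2 change of the 10 genes. It stood at 23.4, 21.3 and 21.3 FPKM in libraries labelled knockdown, against 16.0, 16.6 and 17.4 FPKM in controls. Every library labelled knockdown was above every control. The means were 22.0 ± 1.21 and 16.6 ± 0.670 FPKM (SD, n = 3 each), a rise of 32.4%, with a log2 change of 0.38 (SE 0.06, 95% interval from 0.26 to 0.51, limma adjusted p = 0.00232). Its call held under all 15 alternative settings, with log2 changes from 0.32 to 0.41 and 0.34 without library 1 labelled knockdown. CCNE2, which encodes the close relative cyclin E2, lay far lower, at 2.32, 2.45 and 3.02 FPKM in libraries labelled knockdown and 2.48, 2.62 and 2.49 FPKM in controls. The groups overlapped, and library 3 labelled knockdown was the highest of all 6. The log2 change of CCNE2 was 0.02 (95% interval from -0.15 to 0.19, limma adjusted p = 0.864), and it was -0.06 without that library and 0.08 without library 1 labelled knockdown.

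The D-type cyclins link growth signals to CDK4 and CDK6. CCND3, the gene of cyclin D3, stood at 19.8, 21.3 and 18.96 FPKM in libraries labelled knockdown, against 24.6, 23.6 and 23.9 FPKM in controls. All 3 libraries labelled knockdown were below all controls. CCND3 was 16.8% lower, with means of 20.0 ± 1.16 and 24.0 ± 0.548 FPKM (SD, n = 3 each) and a log2 change of -0.25 (SE 0.05, 95% interval from -0.37 to -0.14, limma adjusted p = 0.0118). This call also held under all 15 alternatives, with adjusted p = 0.0482 at most among them and a log2 change of -0.25 without library 1 labelled knockdown.

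CCND1, the gene of cyclin D1 and the most abundant of the 10, lay at 180.9, 196 and 188 FPKM in libraries labelled knockdown, against 180.2, 171 and 162 FPKM in controls. The groups did not overlap, but library 1 labelled knockdown and control library 1 were nearly level. The log2 change of 0.14 (SE 0.06, 95% interval from 0.01 to 0.27) did not pass (limma adjusted p = 0.133), and it was 0.03 with quantile normalization and 0.17 without library 1 labelled knockdown. Of the third D cyclin gene, CCND2, taken from a list of other pathway genes, the level was 21.3, 21.1 and 19.4 FPKM in libraries labelled knockdown, against 16.4, 16.1 and 17.0 FPKM in controls. CCND2 rose by 0.30 on the log2 scale (SE 0.05, limma adjusted p = 0.00564) and passed under all 15 alternatives. An antisense gene overlaps CCND2, and no source used here states the strand use behind these values, so reads of the pair may be mixed.

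CCND1 made up 81.5%, 82.2% and 83.1% of the summed FPKM of the 3 D cyclins in libraries labelled knockdown, against 81.5%, 81.2% and 79.9% in controls. CCND3 made up 8.91%, 8.91% and 8.38% in libraries labelled knockdown, against 11.1%, 11.2% and 11.8% in controls. For CCND2 the share was 9.58%, 8.86% and 8.56% in libraries labelled knockdown, against 7.42%, 7.64% and 8.38% in controls. CCND2 thus had a share close to that of CCND3 in libraries labelled knockdown, and a smaller share than CCND3 in every control.

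None of the 3 kinase genes passed the threshold with limma or with voom, and CDK4 alone had an unadjusted p under 0.05. CDK4, one of the partners of D cyclins, stood at 42.8, 47.0 and 42.5 FPKM in libraries labelled knockdown, against 40.1, 40.8 and 39.0 FPKM in controls. The groups did not overlap, and the log2 change was 0.14 (SE 0.05, 95% interval from 0.02 to 0.26, limma adjusted p = 0.1001). For CDK4 it was 0.05 with quantile normalization, 0.16 without library 1 labelled knockdown and 0.09 without library 2 of that label. CDK6, its close relative, was read at 2.38, 2.69 and 3.15 FPKM in libraries labelled knockdown and 2.38, 2.65 and 2.74 FPKM in controls, with overlap and a log2 change of 0.05 (95% interval from -0.13 to 0.23, limma adjusted p = 0.677). The log2 change of CDK6 was 0.12, 0.06 and -0.02 without libraries 1, 2 and 3 labelled knockdown, and 0.01, 0.07 and 0.09 without control libraries 1, 2 and 3. CDK2, the kinase that cyclin E activates, lay at 17.4, 15.6 and 15.3 FPKM in libraries labelled knockdown and 15.3, 13.6 and 14.8 FPKM in controls. Its groups overlapped, and its log2 change was 0.13 (95% interval from -0.01 to 0.28, limma adjusted p = 0.178). That value was 0.08 without library 1 labelled knockdown, 0.09 without control library 2 and 0.08 with quantile normalization.

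E2F1 stood at 33.3, 35.7 and 34.0 FPKM in libraries labelled knockdown, against 31.1, 27.3 and 29.1 FPKM in controls, with no overlap. Its means were 34.3 ± 1.25 and 29.2 ± 1.93 FPKM (SD, n = 3 each), a rise of 17.7%, and the log2 change was 0.23 (SE 0.06, 95% interval from 0.10 to 0.36, limma adjusted p = 0.0236). The call was lost without library 2 labelled knockdown (adjusted p = 0.0888), control library 2 (0.125) or control library 3 (0.0847), with no filter (0.0602) and with quantile normalization (0.0945), in a range from 0.0141 to 0.125 over the alternatives. Without library 1 labelled knockdown E2F1 kept its call, at a log2 change of 0.25. RB1, whose product binds and restrains E2F factors, lay at 11.9, 11.7 and 13.7 FPKM in libraries labelled knockdown and 12.7, 12.9 and 14.3 FPKM in controls. Its groups overlapped, and its log2 change was -0.09 (95% interval from -0.25 to 0.06, limma adjusted p = 0.388). The log2 change of RB1 was -0.06, -0.05 and -0.16 without libraries 1, 2 and 3 labelled knockdown, -0.04 without control library 3 and -0.14 with quantile normalization.

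CDKN1B, the gene of the inhibitor p27, stood at 22.97, 24.2 and 26.96 FPKM in libraries labelled knockdown, against 27.6, 29.3 and 28.9 FPKM in controls. The groups did not overlap, with library 3 labelled knockdown just below control library 1. CDKN1B fell by 13.7%, with means of 24.7 ± 2.05 and 28.6 ± 0.871 FPKM (SD, n = 3 each) and a log2 change of -0.21 (SE 0.06, 95% interval from -0.34 to -0.07, limma adjusted p = 0.0438). This call lay close to the threshold. It was lost without library 1 or 2 labelled knockdown (adjusted p = 0.093 and 0.125), without control library 1, 2 or 3 (0.0757, 0.159 and 0.137), with no filter (0.101) and with median scaling (0.0562), in a range from 0.0065 to 0.159 over the alternatives. The log2 change of CDKN1B was -0.16 without library 1 labelled knockdown.

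**Figure D2:**
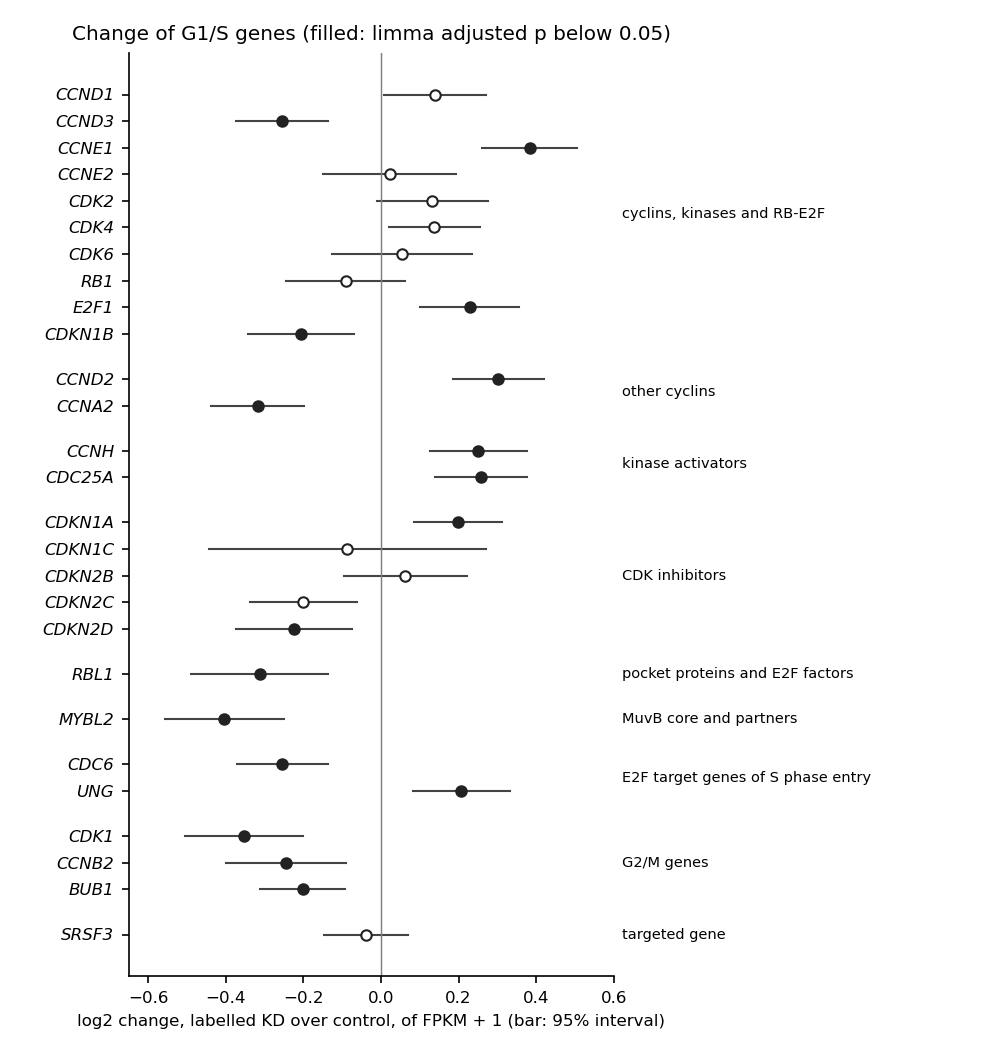
Log2 change of FPKM + 1 (horizontal axis, libraries labelled knockdown over controls) with its 95% interval for the 10 genes, the other pathway genes named in the text and SRSF3, grouped by list; filled circles passed the limma threshold. CCNE1 has the largest rise, at 0.38, and MYBL2 the largest fall, at -0.40, and the interval of SRSF3 spans 0.

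**Figure D3:**
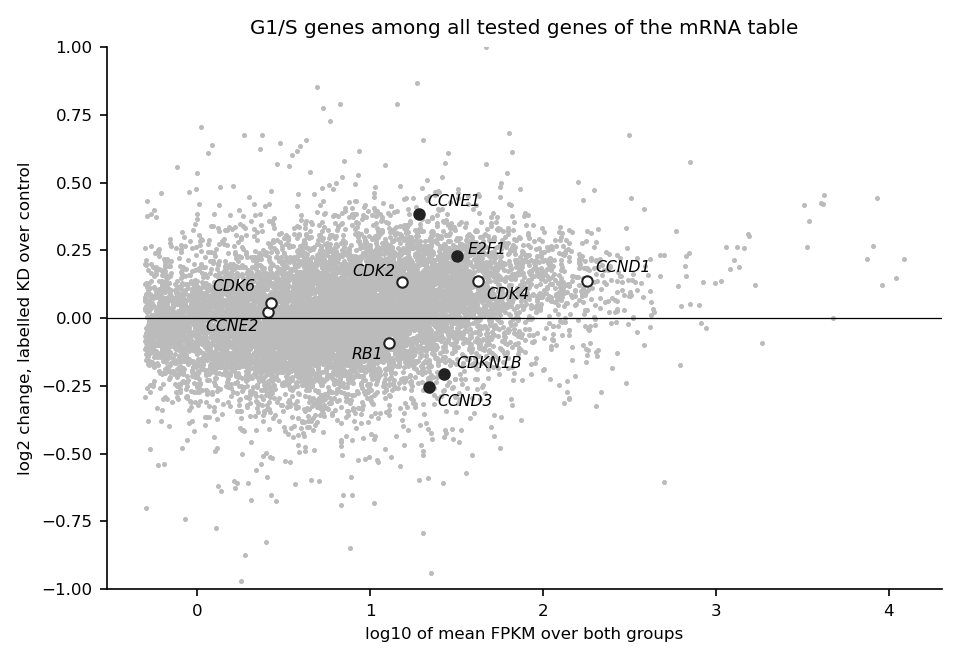
Log2 change of FPKM + 1 (vertical axis, libraries labelled knockdown over controls) against log10 of mean FPKM for all 10823 tested genes (grey; 16 genes lie beyond the vertical range) and the 10 genes (circles, filled where the limma threshold was passed). CCNE1 lies near the upper edge of genes of its level, and CCNE2 and CDK6 lie near 0 at the low end of the 10.

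Ratios between the genes within a library do not depend on a single scaling factor per library, but quantile normalization can change them. They were not tested and are given as values. CCNE1 over CDKN1B was 1.02, 0.882 and 0.791 in libraries labelled knockdown, against 0.58, 0.565 and 0.60 in controls. The FPKM ratio of E2F1 to RB1 was 2.80, 3.05 and 2.48 in libraries labelled knockdown, against 2.45, 2.12 and 2.03 in controls. Neither ratio overlapped between the groups, and library 3 labelled knockdown was nearest to the controls in both. For CCNE1 over CDKN1B this follows from the single genes, as CCNE1 rose and CDKN1B fell with no overlap, and adds nothing to them.

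Among paralogue pairs, CCND1 exceeded CCND3 by a factor of 9.14, 9.23 and 9.91 in libraries labelled knockdown, against 7.32, 7.26 and 6.78 in controls. CCNE1 exceeded CCNE2 by a factor of 10.1, 8.71 and 7.05 in libraries labelled knockdown, against 6.45, 6.33 and 6.98 in controls. Both ratios were higher in every library labelled knockdown than in any control, CCNE1 over CCNE2 by little in library 3 of that label. For CCND1 over CCND3 this follows from the single genes, as CCND1 lay higher and CCND3 lower with no overlap. The ratio of CDK4 to CDK6 overlapped, at 18.0, 17.5 and 13.5 in libraries labelled knockdown and 16.9, 15.4 and 14.2 in controls.

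**Figure D4:**
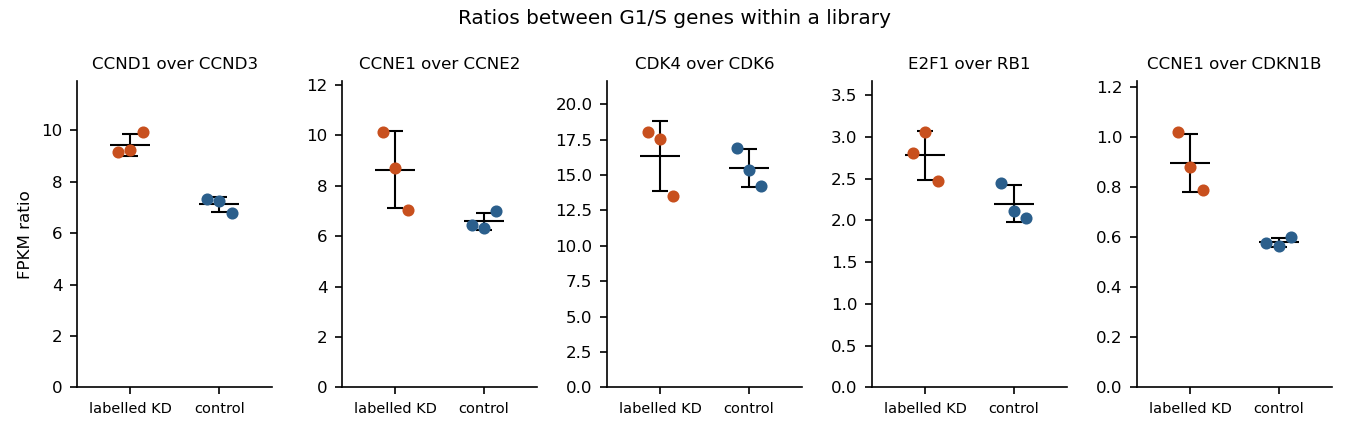
FPKM ratios between pairs of the genes within each library, on linear axes that start at 0, with a point for each library (labelled knockdown left, control right) and bars for mean ± SD over 3 libraries. CCNE1 over CDKN1B lies between 0.791 and 1.02 in the libraries labelled knockdown and between 0.565 and 0.60 in controls, and CDK4 over CDK6 overlaps.

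Other genes of the pathway were taken as 64 genes in 8 lists by role. Of 59 tested, 5 rose and 8 fell (22.0%, against 16.8% of all genes), and after quantile normalization 3 rose and 17 fell. That normalization called 15.0% of all genes, 7.55% higher and 7.47% lower. The share of calls that were higher was thus 50.3%, against 64.8% without it. The median log2 change of the 59 was -0.04, against 0.02 for all genes. Among genes averaging 5 FPKM or more, 13 of 44 of these pathway genes passed, against 1666 of 6311 genes. The number of the 59 passing was 8, 4 and 6 without control libraries 1, 2 and 3. It was 8 without library 2 labelled knockdown and 12 without library 1 of that label. Of all 10823 genes, 1082, 647, 651, 844 and 1640 passed in these fits, in the same order.

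Among the kinase activators, 2 of 4 tested rose, against 10.9% of all genes, and 0 fell (median log2 change 0.20). The phosphatase gene CDC25A, which removes inhibitory phosphates from CDK2, stood at 29.4, 31.6 and 28.1 FPKM in libraries labelled knockdown, against 24.3, 24.7 and 24.95 FPKM in controls. Its log2 change was 0.26 (limma adjusted p = 0.011), a call lost without control library 2 (0.0543). CCNH, a subunit of the kinase that activates CDKs, stood at 3.20 ± 0.027 FPKM in libraries labelled knockdown and 2.53 ± 0.081 FPKM in controls (SD, n = 3 each). CCNH rose by 0.25 (log2, limma adjusted p = 0.0158), a call lost without control library 1 (0.0561), 2 (0.0653) or 3 (0.0528). CDK3 was below the filter, with 4 to 7 fragments in libraries labelled knockdown and 7 to 11 in controls.

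Of 5 tested CDK inhibitor genes, 1 rose and 1 fell (40.0%, against 16.8% of all genes), with a median log2 change of -0.09. CDKN1A, the gene of p21, stood at 114, 122 and 113 FPKM in libraries labelled knockdown, against 103, 102 and 98.95 FPKM in controls, so it was far more abundant than CDKN1B in every library. CDKN1A rose by 0.20 (log2, limma adjusted p = 0.0261), a call lost without library 2 labelled knockdown (0.0996), without control library 1 (0.07), 2 (0.107) or 3 (0.119) and with quantile normalization (0.182).

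CDKN2D, which encodes an inhibitor of CDK4 and CDK6, fell by 0.22 (log2, limma adjusted p = 0.0452), with 6.79 ± 0.195 FPKM in libraries labelled knockdown and 8.12 ± 0.784 FPKM in controls (SD, n = 3 each). That call was lost in 8 of 15 alternatives, among them without each library labelled knockdown in turn (0.0901, 0.0944 and 0.0501), without control library 1 (0.144) or 2 (0.132) and with voom (0.112). CDKN2C, of the same family, missed the threshold (limma adjusted p = 0.0506), at 3.40 ± 0.262 FPKM in libraries labelled knockdown and 4.04 ± 0.060 FPKM in controls. CDKN2C passed without library 2 labelled knockdown (0.0485) and with robust empirical Bayes (0.0474).

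The remaining inhibitor genes were low. CDKN1C lay at 0.633 ± 0.173 FPKM in libraries labelled knockdown and 0.771 ± 0.501 FPKM in controls (limma adjusted p = 0.742), and its log2 change of -0.09 was 0.13 without control library 3. CDKN2B lay at 0.713 ± 0.101 FPKM in libraries labelled knockdown and 0.639 ± 0.071 FPKM in controls (limma adjusted p = 0.573). An antisense lncRNA overlaps CDKN2B, so reads of the pair may be mixed. For CDKN2A, 0 to 2 fragments were read in any library, too few for a fold.

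Pocket proteins and other E2F factors gave 1 fall and 0 rises among 10 tested (median log2 change -0.04). Of all genes 5.91% fell and 10.9% rose. Voom called 2 of the 10, against 18.9% of all genes. Quantile normalization gave 0 rises and 2 falls among them, against 7.55% and 7.47% of all genes. RBL1, the gene of p107, a relative of RB, stood at 2.82, 2.72 and 3.43 FPKM in libraries labelled knockdown, against 3.60, 4.07 and 4.16 FPKM in controls. The log2 change was -0.31 (limma adjusted p = 0.0244), and the call was lost without library 1 (0.053) or 2 (0.0923) labelled knockdown, without control library 2 (0.0892) or 3 (0.101) and with no filter (0.0863). None of the other E2F or TFDP genes tested passed with limma as reported. E2F2 was below the filter, with 0 to 5 fragments per library.

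Genes of ubiquitin ligases that degrade G1/S proteins, SKP2 and FBXW7 among them, gave 0 calls of 7 with limma, against 16.8% of all genes. They gave 0 with voom, which called 18.9% of all genes. Their median log2 change was 0.01. After quantile normalization 0 of them rose and 2 fell, against 7.55% and 7.47% of all genes.

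Among 6 tested genes of the MuvB complex and its partners, which repress or activate cell cycle genes, 1 fell and 0 rose (median log2 change -0.11). That was 16.7% of them, against 16.8% of all genes. MYBL2, itself a known E2F target, stood at 48.1, 41.8 and 39.3 FPKM in libraries labelled knockdown, against 57.7, 57.8 and 55.7 FPKM in controls. It fell by 0.40 (log2, SE 0.07, limma adjusted p = 0.0049), a call kept under all 15 alternatives.

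Of 17 known E2F target genes of S phase entry, 1 rose and 1 fell (11.8%, against 16.8% of all genes), with a median log2 change of -0.03. After quantile normalization 0 rose and 5 fell, against 7.55% and 7.47% of all genes. CDC6, which loads the replicative helicase, stood at 27.4 ± 1.33 FPKM in libraries labelled knockdown and 32.9 ± 1.17 FPKM in controls (SD, n = 3 each). CDC6 fell by 0.25 (log2, limma adjusted p = 0.0115), a call lost without control library 2 (0.0646) or 3 (0.0559). UNG, which removes uracil from DNA, rose by 0.21 (log2, limma adjusted p = 0.0326), with 27.3 ± 1.31 FPKM in libraries labelled knockdown and 23.5 ± 1.25 FPKM in controls. The UNG call was lost without library 1 (0.059) or 2 (0.111) labelled knockdown, without control library 1 (0.0602), 2 (0.085) or 3 (0.143), with no filter (0.0725) and with quantile normalization (0.0825).

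Of the other cyclin genes, CCND2 rose, as given above, and CCNA2 fell. CCNA2, the gene of cyclin A2, the partner of CDK2 in S phase, stood at 19.7, 20.7 and 22.1 FPKM in libraries labelled knockdown, against 26.97, 25.6 and 26.0 FPKM in controls. CCNA2 fell by 0.32 (log2, SE 0.05, limma adjusted p = 0.00476) and kept its call under all 15 alternatives, while CCNA1 was listed at 0 in all 6 libraries.

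Of 8 G2/M genes, 3 fell (37.5%, against 5.91% of all genes) and 0 rose, with a median log2 change of -0.11. After quantile normalization 5 fell, against 7.47% of all genes. CDK1, the kinase of mitotic entry, stood at 13.6, 12.6 and 15.3 FPKM in libraries labelled knockdown, against 17.7, 17.2 and 18.7 FPKM in controls, a fall of 0.35 (log2, limma adjusted p = 0.00856) kept under all 15 alternatives. CCNB2, a mitotic cyclin gene, fell by 0.25 (log2, limma adjusted p = 0.0378), a call lost in 7 alternatives, among them without library 2 (0.12) or 3 (0.0662) labelled knockdown and without control library 1 (0.085), 2 (0.148) or 3 (0.0816). BUB1, of the spindle checkpoint, fell by 0.20 (log2, limma adjusted p = 0.021), a call lost without library 2 labelled knockdown (0.0738) and without control library 2 (0.106) or 3 (0.0925). Lower mitotic genes were known from earlier results of these data, so this list is no independent evidence of direction.

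**Figure D5:**
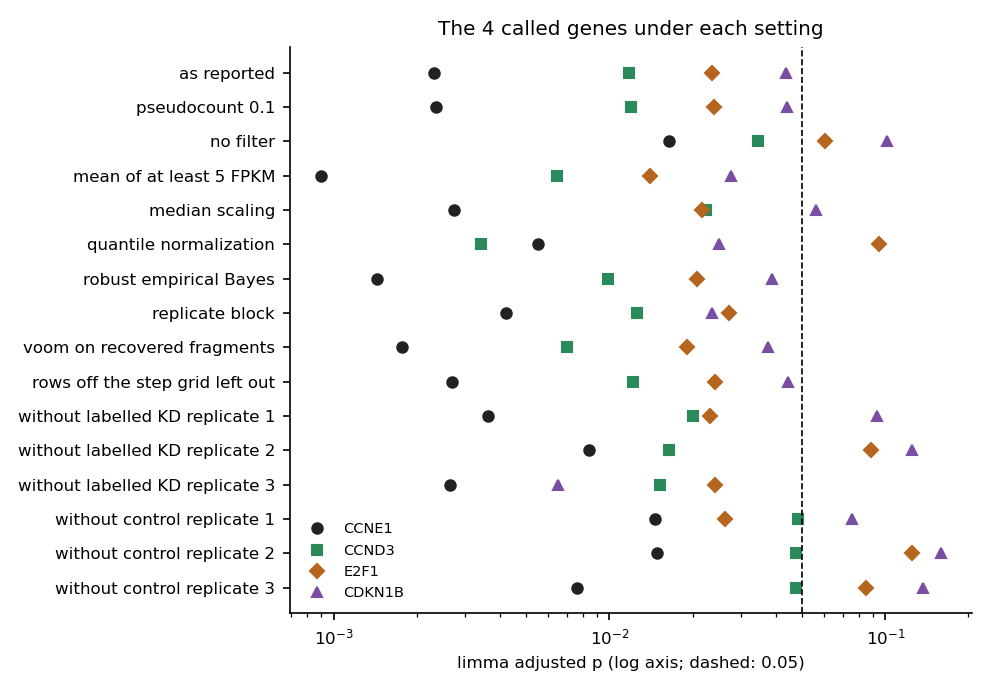
Limma adjusted p (log axis; dashed line at 0.05) of the 4 called genes as reported and under each of 15 alternative settings. CCNE1 and CCND3 stay left of the line throughout, while E2F1 crosses it in 5 settings and CDKN1B in 7.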

How the data were processed

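Expression was measured by RNA sequencing in 6 libraries, 3 labelled SRSF3 knockdown and 3 control. The authors deposited FPKM values per gene symbol. Per the submitters' processing notes, the tools were StringTie, HISAT2, edgeR and Cuffdiff; their roles and versions, the genome build, the annotation and strand use were not given in the sources used here. Per the labels' protocols there was a poly(A)-selected and a stranded, rRNA-depleted preparation, and which gave these values is not said. Gene coordinates are printed only for RefSeq promoter windows.

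FPKM values were checked for steps of whole fragments, within 0.003 fragments (plus 1e-08 of the number), which 99.8% of 14803 rows followed; all 10 members did. The whole table was fitted with limma 3.58.1 in R 4.3.3 (trend, two-sided, Benjamini-Hochberg) on log2(FPKM + 1), for rows averaging 0.5 FPKM or more, with no rescaling. Folds of low genes are understated. The fit was tested on simulated data. Python 3.11.15 with numpy 2.4.6 and pandas 2.3.3 was used for tables.

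The 15 alternatives were a pseudocount of 0.1, no filter, a mean of 5 FPKM, quantile normalization, median scaling, a replicate block, robust empirical Bayes, voom on recovered fragments, rows off the steps left out, and each library left out. Members and lists were chosen with earlier results of these data known. Named were the members, SRSF3, all CDK inhibitors and, per list, genes past the threshold (at most 4). CDK3, E2F2 and CCNA1, below the filter, and SKP2 and FBXW7, as examples, were named after their values were seen. Counting errors cover counting only. A further leukocyte marker is not reported here.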

Additional observations from a re-analysis of the deposited data

How the results depend on the processing

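The number of genes passing was 960 with no filter, against 1819 as reported, and that of the 10 G1/S genes was 2, against 4. The other pathway genes passing numbered 20 with quantile normalization, against 13. With each library left out in turn, from 647 to 2742 genes of the table passed, from 2 to 4 of the 10 G1/S genes and from 4 to 14 of the other pathway genes. None of the 10 G1/S genes changed sign with median scaling or quantile normalization. Signs that turned belonged to genes that did not pass. With each library left out, the log2 change ran from -0.0609 (without library 3 labelled knockdown) to 0.0785 for CCNE2, from -0.0235 (without the same library) to 0.124 for CDK6 and from -0.232 to 0.134 (without control library 3) for CDKN1C, which gave 0.00105 without library 1 labelled knockdown. The cause was not tested. CCNE2 and CDK6 were not tested at a mean of 5 FPKM.

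Libraries that share a replicate number were not clearly pairs, and their deviations from the group means correlated at 0.08, 0.04 and 0.28. Libraries 1 and 3 labelled knockdown correlated best with the control of the same number. Library 2 labelled knockdown correlated best with control library 1 (0.15). With the replicate number as a block, 2323 genes passed, with 4 of the 10 G1/S genes and 17 of the other pathway genes, CDKN2C among them (adjusted p = 0.0437).

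CDKN2A, E2F2 and CDK3 had at most 11 fragments per library, too few for a fold.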
